A study of Danio rerio with 4 samples.

Results

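Insulin-like growth factors (Igfs) and the binding proteins that hold them in extracellular fluid (Igfbps) were followed in the injured zebrafish ventricle. The genes were taken by name: a row of the count table entered if its gene column read *igf1*, *igf2a*, *igf2b*, *igfbp1a*, *igfbp1b*, *igfbp2a*, *igfbp3*, *igfbp5a*, *igfbp5b* or *igfbp7*. Of these 10 names 9 had a row, out of 17221 rows in all, and *igf1* was not analysed here. The family was selected on the normalized counts of this same comparison, in which *igfbp1b* had been seen among the genes with the widest gap between the groups. The differences between groups are therefore given for the 9 genes as a description, with no test.

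Adult AB-strain fish had the ventricle cryoinjured, a local freezing injury, and were then heat-shocked at 39 °C. Ventricles were taken 24 h after cryoinjury (24 hpci). The transgenic fish, Tg(hsp70l:sflt4), make sflt4, soluble Vegfc receptor Flt4, from the promoter of the heat-shock gene *hsp70l*, and the other group was WT. Both groups had injury and heat shock, so neither gives the level of an uninjured or unheated heart, and a heat-shock promoter is not limited to 1 cell type. Each group had 2 libraries, each from a pool of 3 ventricles (WT pools and sflt4 pools below). The labels do not say how the fish were assigned to pools, and p-values measure only the spread between these libraries. By its title, the study sought targets of Vegfc signaling in the regenerating heart.

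Igf ligands act through Igf1 receptors, tyrosine kinases that feed the PI3K, Akt and mTOR route and keep FoxO transcription factors out of the nucleus. Binding proteins carry the ligands, extend their life and either block or release them, and proteases of the Pappalysin type free the ligand by cutting the binding protein. Igf signaling is known to be needed for heart muscle cells to divide when the zebrafish heart regenerates. Igfbp1 is the member that answers to metabolic state: fasting, low oxygen, glucocorticoids and FoxO activity are known to raise it, and insulin lowers it.

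Values are read counts that the authors normalized for library size and rounded, and they are compared between libraries for 1 gene, not between genes, since no transcript length was used. The normalized totals ran from 30171847 to 34096403. Of 12 heart muscle marker genes 10 had a row. Their values summed to 1912898 and 1680882 in WT pools and to 1352879 and 1433840 in sflt4 pools, so both sflt4 pools lay below both WT pools, and the part of this in the results below was not tested. The *flt4* gene itself read 618 and 515 in WT pools and 504 and 538 in sflt4 pools. Reads of the transgene need not be counted there, since its sequence was not used here. In limma's test on log2(value + 1), 0 of 17071 genes passed an adjusted p of 0.05 (0.0%), with 1881 at an unadjusted p under 0.05. In bulk tissue, fewer cells of a type and less RNA per cell cannot be told apart.

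Of the 9 genes, 3 had both Tg(hsp70l:sflt4) libraries below both WT libraries (*igf2a*, *igfbp1a*, *igfbp1b*) and 2 had both above (*igf2b*, *igfbp5a*). The groups overlapped for the other 4, *igfbp2a*, *igfbp3*, *igfbp5b* and *igfbp7*. Groups failed to overlap for 43.2% of all genes tested (21.4% lower and 21.8% higher in Tg(hsp70l:sflt4)), and since the genes were chosen with this comparison known, nothing is read from their count.

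**Figure D1:**
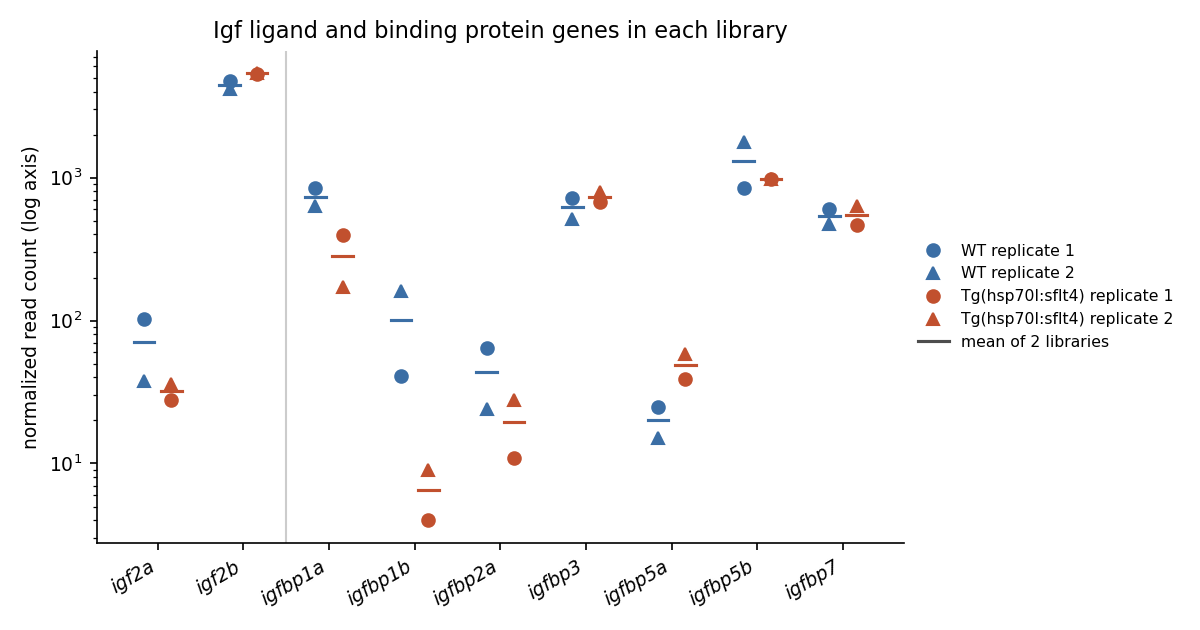
Normalized read count (log axis) of the 9 Igf ligand and binding protein genes in each library; circles are replicate 1, triangles replicate 2, and bars the mean of 2 libraries. The *igfbp1b* points stand at 41 and 160 in WT pools and at 4 and 9 in sflt4 pools, while those of *igfbp7* interleave.

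The ligand genes were *igf2b* and *igf2a*, duplicates of the gene for Igf2. *igf2b* (chromosome 25, 24039364 to 24046870, danRer11) read 4762 and 4188 in WT pools and 5325 and 5382 in sflt4 pools. The 2 transgenic libraries were nearly alike and both stood above WT, at 5354 ± 40.3 against 4475 ± 406 (SD, n = 2 per group), or 1.20-fold. *igf2a* (chromosome 7, 48870496 to 48876480) read 103 and 38 in WT pools and 28 and 36 in sflt4 pools. WT replicate 1 alone was high. WT replicate 2 stood 2 reads above the higher transgenic library, and without WT replicate 1 the log2 difference shrank from -0.96 (SE 0.54) to -0.25. If the values are taken as read counts, the exact Poisson 95% interval, which covers counting error only, was 26.9 to 52.2 for WT replicate 2 and 25.2 to 49.8 for Tg(hsp70l:sflt4) replicate 2.

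The Igfbp1 genes had the widest gaps of the 9, and both were lower in Tg(hsp70l:sflt4). *igfbp1a* (chromosome 20, 6808774 to 6812688) read 841 and 629 in WT pools and 395 and 171 in sflt4 pools. All 4 libraries kept the group order, with 735 ± 150 against 283 ± 158 (SD, n = 2 per group), 2.60-fold lower in the transgenic group. The log2 difference was -1.48 (SE 0.41) and lay between -2.08 and -0.88 when each library was left out in turn.

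Its duplicate *igfbp1b* (chromosome 2, 124433 to 127945) read 41 and 160 in WT pools and 4 and 9 in sflt4 pools. The WT libraries differed 3.90-fold from each other, and the lower of them was still above the higher transgenic one. The means were 100.5 ± 84.2 and 6.5 ± 3.54 (SD, n = 2 per group), a 15.5-fold gap. Taken as read counts, the Poisson intervals were 29.4 to 55.6 for WT replicate 1 and 4.12 to 17.1 for Tg(hsp70l:sflt4) replicate 2, which do not meet. The interval of WT replicate 2, 136.2 to 186.8, did not meet that of WT replicate 1 either. Counting error alone thus does not cover the spread within a group, and nothing about the groups is read from these intervals. The log2 difference was -3.54 (SE 0.77), from -4.51 without WT replicate 1 to -2.57 without WT replicate 2.

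The duplicates did not follow each other within a group. WT replicate 2 was the higher WT library for *igfbp1b* and the lower for *igfbp1a*. Likewise Tg(hsp70l:sflt4) replicate 2 was the higher transgenic library for *igfbp1b* and the lower for *igfbp1a*. Whether reads were shared between the duplicates was not checked here. *hsp70l*, a heat-shock gene, was also far higher in WT replicate 2 than in WT replicate 1, at 4264 against 461, and it read 1191 and 647 in the transgenic libraries. The part of this difference in the *igfbp1b* result was not tested.

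**Figure D2:**
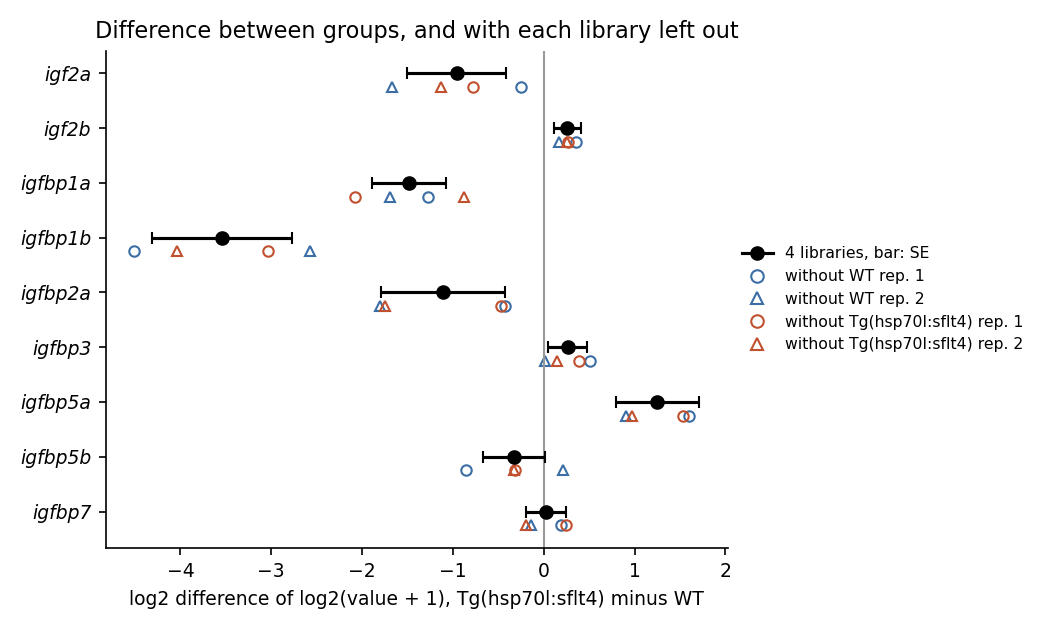
Log2 difference of log2(value + 1), Tg(hsp70l:sflt4) minus WT, for each gene (filled point, bar SE) and with each library left out (open symbols). *igf2a*, *igfbp1a*, *igfbp1b* and *igfbp2a* stay below 0 and *igf2b*, *igfbp3* and *igfbp5a* above 0 with each library left out. In contrast, *igfbp5b* runs from -0.86 to 0.21 and *igfbp7* from -0.19 to 0.25.

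Igfbp5 and Igfbp2 genes were mixed. *igfbp5a*, which in zebrafish marks calcium-transporting ionocytes of the skin, sits on chromosome 6 (20910551 to 20918694) and read 25 and 15 in WT pools and 39 and 58 in sflt4 pools. Both transgenic libraries were higher, 48.5 ± 13.4 against 20 ± 7.07 (SD, n = 2 per group), with a log2 difference of 1.25 (SE 0.46). Its counts are small: the Poisson intervals of WT replicate 1 (16.2 to 36.9) and Tg(hsp70l:sflt4) replicate 1 (27.7 to 53.3) overlap.

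Its duplicate *igfbp5b* (chromosome 9, 46820636 to 46842179) read 848 and 1784 in WT, around the 982 and 985 of the transgenic group. The sign of its log2 difference, -0.32 (SE 0.34), depended on WT replicate 2, without which it was 0.21. *igfbp2a*, to which the deposited annotation gives the Gene Ontology term angiogenesis, read 64 and 24 in WT pools and 11 and 28 in sflt4 pools. Its groups overlapped, and its 2 libraries differed 2.67-fold among WT pools and 2.55-fold among sflt4 pools.

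Groups also overlapped for *igfbp3* and *igfbp7*. *igfbp3*, for the main serum carrier of Igfs in mammals, read 724 and 515 in WT pools and 675 and 797 in sflt4 pools. Its log2 difference of 0.26 (SE 0.21) was as large as that of *igf2b*, 0.26 (SE 0.14), whose groups did not overlap. Without WT replicate 2 the *igfbp3* difference was 0.02. *igfbp7*, for a secreted protein of blood vessels that binds Igfs weakly, read 599 and 475 in WT pools and 467 and 633 in sflt4 pools. The means of *igfbp7* were 537 ± 87.7 and 550 ± 117 (SD, n = 2 per group), a log2 difference of 0.03 (SE 0.22), and with single libraries left out it went from -0.19 to 0.25. The last 2162 bases of *igfbp7* (chromosome 14, 52369262 to 52379718) overlap *polr2b*, an RNA polymerase II subunit gene on the other strand. The kit marks strand, but no source used here gives the strand setting of the counting, so *igfbp7* is uncertain.

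Replicate spread differed among the 9 genes. The pooled SD of log2 values within groups was 1.09 for *igfbp1b*, larger than in 97.2% of the genes tested, and 0.94 for *igfbp2a*, 0.73 for *igf2a* and 0.64 for *igfbp1a*, each above at least 88.7% of genes. It was 0.09 for *igf2b*, where 16.2% of genes had a smaller one, and 0.27 and 0.28 for *igfbp3* and *igfbp7*. The median over all genes tested was 0.22.

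Some binding protein genes lie in pairs, end to end, as their relatives do in other vertebrates. *igfbp3* (6756247 to 6804237, plus strand) and *igfbp1a* (minus strand) point toward each other on chromosome 20 with 4536 bases between them. *igfbp5a* (plus strand) and *igfbp2a* (20921542 to 20952187, minus strand) do so on chromosome 6 with 2847 bases between them. Neighbours did not share a pattern. *igfbp1a* was lower in both transgenic libraries while *igfbp3* overlapped, and *igfbp5a* was higher in both while *igfbp2a* overlapped. *igfbp1b* lies on chromosome 2, on the minus strand, 2268 bases from *znfl2a*, a zinc finger gene of the same strand.

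WT replicate 1 was the highest library for *igf2a*, *igfbp1a* and *igfbp2a*, and WT replicate 2 for *igfbp1b* and *igfbp5b*. *igfbp6b*, a binding protein gene outside the 9 and added here after its values were seen, read 2250 and 949 in WT pools and 1191 and 224 in sflt4 pools. Its groups overlapped, and limma gave an adjusted p of 0.547. The summed values of the 12 fibroblast and matrix genes, all with a row, were 214201 and 112463 in WT pools and 182789 and 182135 in sflt4 pools. Those of 7 epicardial genes were 52745 and 38244 in WT pools and 39837 and 34712 in sflt4 pools. Both lists were thus highest in WT replicate 1, as *igf2a* and *igfbp2a* were, and their part in those values was not tested. Of 16 liver genes, liver being the main source of circulating Igfbp1 in vertebrates, 5 had a row. Their sums were 5798 and 7894 in WT pools and 2028 and 3510 in sflt4 pools, carried mostly by *rbp4* and *tfa*, and the other 3 (*fga*, *cp*, *ambp*) read 25 or less in every library. *rbp4* read 4166 and 1318 in WT pools and 763 and 1040 in sflt4 pools. *tfa* overlapped, at 1590 and 6559 in WT pools and 1246 and 2418 in sflt4 pools, and was high in the other WT library. The part of liver genes in the Igfbp1 values was not tested.

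**Figure D3:**
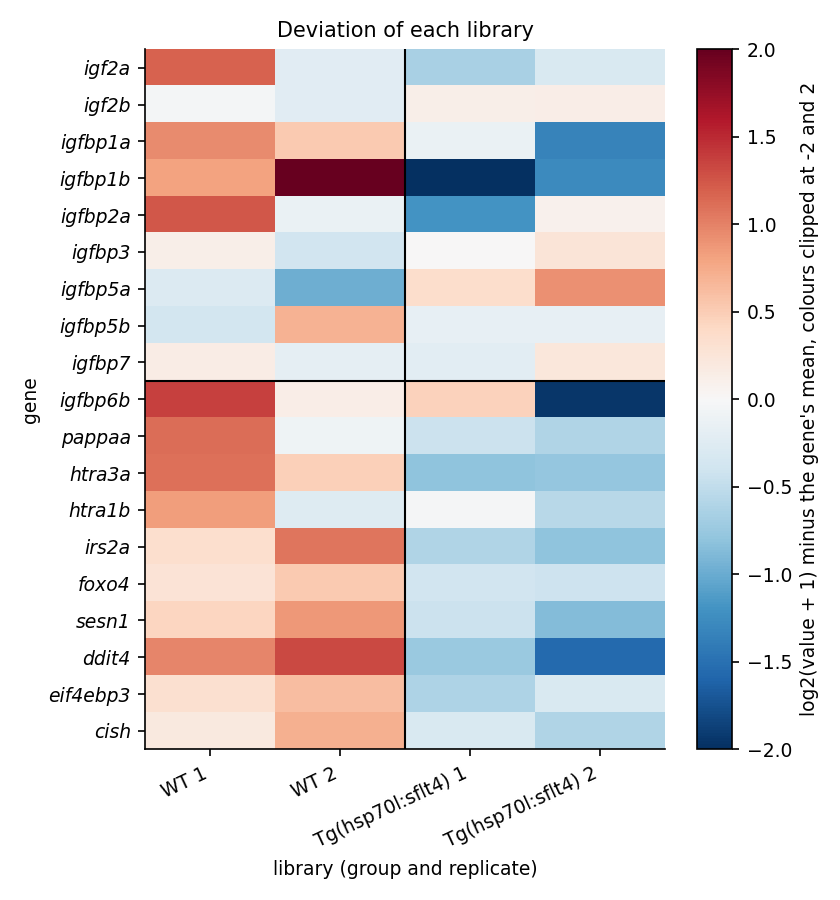
Deviation of each library from the gene's mean over the 4 libraries (log2 of value + 1, colours clipped at -2 and 2), for the 9 genes above the line and 10 other genes named in the text below it. These 10 were picked by hand, and each has a negative log2 difference, Tg(hsp70l:sflt4) minus WT. Genes outside the 9 with a positive one, such as *htra1a*, *stat5a* and *atf3*, are not drawn. Red cells of *igf2a* and *igfbp2a* stand in WT replicate 1, and the darkest red cell is *igfbp1b* in WT replicate 2.

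The rest of the pathway was read from 9 lists ordered by role, with 115 names, 96 of them with a row and tested. None passed the test. Outside the 9 genes, 87 were left, of which 57 had a lower and 30 a higher fitted mean in Tg(hsp70l:sflt4). A fitted mean is the group mean of log2(value + 1), which can order groups otherwise than the mean of the values. Over all 17071 genes tested these numbers were 8757 and 8314. At an unadjusted p under 0.05, 15 of the 87 were lower (17.2%) and 1 was higher, where the shares over all genes tested were 5.45% and 5.57%. These lists and those below were chosen with earlier results of these data known, so their shares are a description only. The median log2 difference was -0.22, against -0.01 over all genes. With libraries scaled to equal totals, which moved the median of all genes by 0.11, the counts were 11 lower and 5 higher and the median -0.11. Without Tg(hsp70l:sflt4) replicate 2 the lower count was 9. Over all genes the lower count, 930 with all libraries, was 549 with equal totals. It was 1290 and 1386 when WT replicates 1 and 2, in that order, were left out, and 607 and 362 when sflt4 replicates 1 and 2 were.

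In the list of proteases that act on binding proteins and inhibitors of such proteases, 4 of 5 genes had the lower fitted mean in Tg(hsp70l:sflt4). So did 8757 of all 17071 genes tested. The inhibitor gene *stc2a* was among the 4, though its means were nearly level, 80 in WT pools and 78.5 in sflt4 pools. *htra3a*, a secreted serine protease gene, read 395 and 256 in WT pools and 105 and 107 in sflt4 pools, which differ by -1.58 on the log2 scale (SE 0.28, limma adjusted p = 0.272). Both transgenic libraries lay far below WT and close to each other. *pappaa*, whose product cuts Igfbp5a in zebrafish, read 883 and 380 in WT pools and 302 and 266 in sflt4 pools, a difference of -1.03 in log2 (SE 0.40, limma adjusted p = 0.435). WT replicate 1 was again the high library: without it the difference was -0.42, and without WT replicate 2 it was -1.64. *htra1b*, for a related protease, was named after its values were seen. It read 8827 and 4122 in WT pools and 4820 and 3346 in sflt4 pools. *htra1a* had the higher mean in sflt4 pools, at 208 and 244, against 169 and 131 in WT pools. *stc2a*, for an inhibitor of pappalysins, overlapped at 92 and 68 in WT pools and 98 and 59 in sflt4 pools.

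No receptor gene passed the test. *igf1rb*, for an Igf1 receptor, read 542 and 897 in WT pools and 581 and 405 in sflt4 pools, so the groups overlapped (log2 difference -0.52, SE 0.30, limma adjusted p = 0.566). Its duplicate *igf1ra* read 73 and 61 in WT pools and 55 and 36 in sflt4 pools, with no overlap and -0.57 between the groups on the log2 scale (SE 0.36, limma adjusted p = 0.601). *igf2r*, for the receptor that clears Igf2 in mammals, read 928 and 1167 in WT pools and 1280 and 1177 in sflt4 pools. The difference for *igf2r* was 0.24 on the log2 scale (SE 0.17, limma adjusted p = 0.634).

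Below the receptor, *irs2a*, for a docking protein of the insulin and Igf1 receptors, read 508 and 850 in WT pools and 267 and 231 in sflt4 pools. Both sflt4 pools lay below both WT pools, with -1.40 between the groups on the log2 scale (SE 0.28, limma adjusted p = 0.287). Without WT replicate 1 the *irs2a* difference was -1.77, and without WT replicate 2 it was -1.03. Its duplicate *irs2b* overlapped, at 1352 and 3415 in WT pools and 1139 and 1869 in sflt4 pools. Of the PI3K, Akt and mTOR list, the 3 genes with the smallest p were *eif4ebp3*, *eif4ebp3l* and *pdpk1a*. *eif4ebp3*, for a translation repressor that mTOR inactivates, read 501 and 616 in WT pools and 261 and 324 in sflt4 pools (limma adjusted p = 0.309). *eif4ebp3l*, of the same family, read 2607 and 4624 against 1637 and 1818 (limma adjusted p = 0.356). Its log2 difference moved from -1.01 to -1.42 when WT replicate 1 was left out, and to -0.60 when WT replicate 2 was. *pdpk1a*, for the kinase that activates Akt, read 420 and 635 in WT pools and 292 and 276 in sflt4 pools (limma adjusted p = 0.356). The 6 genes of this list of 31 that were lower at an unadjusted p under 0.05 were *eif4ebp1*, *eif4ebp3*, *eif4ebp3l*, *tsc1a*, *tsc1b* and *pdpk1a*. Of these, *pdpk1a* is for the kinase that activates Akt, and translation repressor and Tsc1 genes make up the rest. What their count means for the route was not tested. The count was 19.4% of the list, with 0 higher, against 5.45% lower and 5.57% higher over all genes tested. With equal totals 4 were lower and 2 higher, and without Tg(hsp70l:sflt4) replicate 2 the lower count was 2 and without replicate 1 it was 3.

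**Figure D4:**
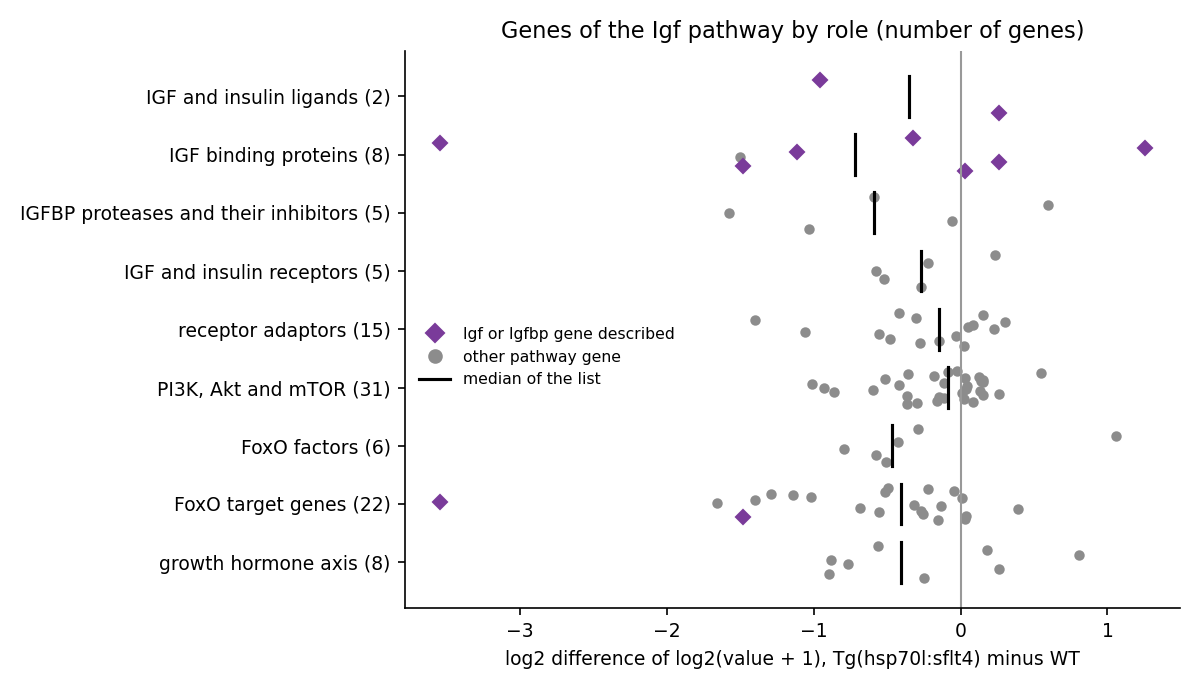
Log2 difference of log2(value + 1), Tg(hsp70l:sflt4) minus WT, for the genes of 9 pathway lists (number of genes in brackets); diamonds are the Igf ligand and binding protein genes described, dots other genes, and bars list medians. Points lie on both sides of 0 in every list, with *igfbp1b* farthest to the left at -3.54.

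FoxO factors and their targets include the Igfbp1 genes. *foxo4* read 1488 and 1754 in WT pools and 937 and 923 in sflt4 pools, -0.80 apart on the log2 scale (SE 0.15, limma adjusted p = 0.272). *foxo3b* read 2351 and 2347 in WT pools and 1645 and 1866 in sflt4 pools (limma adjusted p = 0.391). *sesn1*, a FoxO and p53 target that restrains mTOR complex 1, read 2250 and 3035 in WT pools and 1243 and 918 in sflt4 pools. Its log2 difference was -1.29 (SE 0.22, limma adjusted p = 0.272), and lay between -1.51 and -1.07 with each library left out in turn. Leaving out *igfbp1a* and *igfbp1b*, 16 of 20 FoxO target genes had the lower fitted mean in Tg(hsp70l:sflt4), as did 8757 of all 17071 genes tested. At an unadjusted p under 0.05, 4 of the 20 were lower (20%, against 5.45% of all genes tested) and 0 higher. *irs2a*, given above with the receptor adaptors, is among these 4. None of these genes passed with all 4 libraries.

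Of the growth hormone axis, which drives *igf1* in liver, *cish* had the smallest p. This gene for a feedback inhibitor induced by Stat5 read 1488 and 2124 in WT pools and 1057 and 862 in sflt4 pools, -0.90 apart on the log2 scale (SE 0.22, limma adjusted p = 0.313). With each library left out in turn the *cish* difference lay between -1.15 and -0.64. *stat5a* read 47 and 51 in WT pools and 99 and 75 in sflt4 pools (limma adjusted p = 0.447).

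Stimuli known to act on Igfbp1 were followed through genes that respond to them, and none passed the test. *ddit4*, a gene induced by low oxygen, glucocorticoids and stress, read 699 and 882 in WT pools and 211 and 120 in sflt4 pools, a difference of -2.30 in log2 (SE 0.31, limma adjusted p = 0.193). Like *igfbp1a* it was lowest in Tg(hsp70l:sflt4) replicate 2. In the list of 22 hypoxia response genes 18 had the lower fitted mean, as did 8757 of all 17071 genes tested. At an unadjusted p under 0.05, 6 of the list were lower (27.3%, against 5.45% of all genes tested) and 0 higher. With equal totals 2 were lower, and without Tg(hsp70l:sflt4) replicate 2 also 2, settings under which the lower count over all genes dropped as well, from 930 to 549 and 362. *bnip3*, a hypoxia-induced mitophagy gene, read 328 and 413 in WT pools and 201 and 189 in sflt4 pools (limma adjusted p = 0.313). In the list of 14 glucocorticoid response genes 11 had the lower fitted mean. At an unadjusted p under 0.05, 4 of these 14 were lower (28.6%, against 5.45% of all genes tested). Leaving out WT replicate 2 made that count 2, and leaving out WT replicate 1 made it 7. *cebpd* read 2464 and 5962 in WT pools and 1340 and 992 in sflt4 pools, and like *igfbp1b* it was highest in WT replicate 2 (limma adjusted p = 0.313). The *cebpd* log2 difference of -1.73 became -2.37 when WT replicate 1 was dropped, and -1.095 when WT replicate 2 was. Of 14 integrated stress response genes, 11 had the lower fitted mean. At an unadjusted p under 0.05, 4 of them were lower (28.6%) and 2 higher, against 5.45% and 5.57% of all genes tested. *ddit4* is in this list and in the hypoxia list, and is counted among the lower genes of both. *atf3* was higher at 4193 and 4356 against 1481 and 2779 (limma adjusted p = 0.356). Its log2 difference was 1.07, and ran from 0.62 to 1.53 with each library left out in turn.

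Genes with the most similar profile were sought by the Euclidean distance between log2 profiles, each centred on its own mean, over the 4 libraries and 12213 genes. With 4 libraries a small distance is common and says little. For *igfbp1b* the nearest were *map1lc3cl* (108 and 289 in WT pools, 24 and 42 in sflt4 pools) at a distance of 1.17, *adrb2b* at 1.43 and *amfrb* at 1.49. For *igf2b* the nearest were *sgk3*, *arhgap27* and *mrpl36*, at 0.01 to 0.03, for *igfbp3* they were *spata6l*, *arhgap24* and *CR391963.1*, at 0.01 to 0.03, and for *igfbp7* they were *tox*, *CABZ01074076.1* and *nme3*, at 0.03 to 0.05.

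The deposited annotation gave Gene Ontology terms to 7 of the 9 genes. The term insulin-like growth factor binding was on 14 genes of the table, 5 of them among the 9 (*igfbp1a*, *igfbp1b*, *igfbp2a*, *igfbp5a*, *igfbp7*). Response to hypoxia was on 28 genes and, of the 9, on *igfbp1a* alone. Fin regeneration was on 27 genes, *igf2b* among them.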

How the data were processed

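The 4 libraries, 2 per group, were made from pooled ventricles with a stranded mRNA kit (500 ng of total RNA, per the labels). The build danRer11 and the tools DESeq2 1.18.1, featureCounts 1.6.3 (Subread), Trimmomatic 0.38 and FastQC are listed in the submitters' processing notes without role or order. No source used here names the aligner. The deposited values are a score, read counts normalized by the authors and rounded to whole numbers: library medians ran from 328 to 335, and the lowest mean in the table was 4.25, so low genes had been left out.

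limma 3.58.1 in R 4.3.3 was fitted to log2(value + 1), with trend and robust moderation. A gene entered if its values averaged at least 10, as 17071 genes did, all 9 Igf genes among them. P-values were adjusted by Benjamini-Hochberg over all of these genes, with a threshold of 0.05. Log2 differences understate those of low genes. The script was tested on simulated data. With 2 libraries per group, the smallest two-sided p of an exact permutation test is 0.333.

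The members, the 22 gene lists (282 names, 235 with a row, 2 found through gene identifiers) and the tests were chosen with earlier results of these data known. Named genes are all members with a row, up to 3 per pathway or regulator list with the smallest p, and the 3 nearest profiles of *igfbp1b*, *igf2b*, *igfbp3* and *igfbp7* among genes with a mean of at least 50. The text names part of them, and others named after their values were seen.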

Additional observations from a re-analysis of the deposited data

How the results depend on the processing

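The test called 0 genes in all alternatives that kept the 4 libraries, and between 0 and 217 when single libraries were left out, 217 without WT replicate 1 and 73 without WT replicate 2. Genes at an unadjusted p under 0.05 numbered 1881 and ran from 695 to 2771 with single libraries left out, the lowest without Tg(hsp70l:sflt4) replicate 2 (695) and replicate 1 (1064). With equal totals there were 1584 higher and 549 lower, against 951 and 930. Genes whose groups do not overlap numbered 7382, and between 10711 and 13448 with a library left out, where fewer values have to separate. The labels do not say that replicate numbers pair libraries; same-numbered libraries deviated with a correlation of 0.137, and the replicate block gave 0 calls and 2285 genes at an unadjusted p under 0.05. Of the 9 Igf genes, *igf2b* with equal totals was 0.37 against 0.26, more than its SD within groups away. Leaving out single libraries turned the sign of *igfbp5b* (-0.86 to 0.21) and *igfbp7* (-0.19 to 0.25). Of 323 values for the genes named for the smallest p in their list, none changed sign. Those genes were picked on their difference between groups. Genes named after their values were seen, such as *irs2b*, *stc2a* and *cited2*, were not in this check. A fit with a library left out has 1 library in that group, so for a named gene only its effect size is read. FoxO target genes outside the 9 that were lower at an unadjusted p under 0.05 numbered 7 with the replicate block against 4. Over all genes that count also rose, from 930 to 1105. The counts of list genes under each alternative were added after seeing the data. All comparisons are limited by 2 libraries per group, and the low values of *igfbp5a* also by counting error.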

Other observations

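By the deposited KEGG terms, 13 of 147 FoxO signaling genes were lower in Tg(hsp70l:sflt4) (8.84%) and 5 higher at an unadjusted p under 0.05, where 5.45% of all genes tested were lower and 5.57% higher, with a median log2 difference of -0.05. Of 151 insulin signaling genes 16 were lower (10.6%) and 4 higher, with a median of -0.07, and of 155 mTOR signaling genes tested 11 were lower (7.10%) and 4 higher, with a median of -0.02. Of 68 p53 signaling genes, *igfbp3* among them, 5 were lower (7.35%) and 8 higher, with a median of 0.07. These terms were looked up after the values were seen, and none of their genes passed the test.

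Some genes that FoxO factors are known to induce in wasting muscle were uneven between WT libraries, and they were named after their values were seen. *fbxo32*, a ubiquitin ligase gene, read 702 and 3497 in WT pools and 640 and 386 in sflt4 pools, and *trim63a*, another, read 6955 and 14573 in WT pools and 4141 and 5026 in sflt4 pools. Both were highest in WT replicate 2, as *igfbp1b* was. *trim63b*, the duplicate of *trim63a*, read 2199 and 3285 in WT pools and 2461 and 2050 in sflt4 pools, so its groups overlapped. Other genes of the FoxO target list were higher in WT replicate 1, such as *cited2* (1364 and 213 in WT pools) and *klf15* (120 and 60).

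Markers of cell types showed no member past the test. Over all 17071 genes tested, 8314 had the higher and 8757 the lower fitted mean in Tg(hsp70l:sflt4). Marker counts were made over rows: heart muscle had 11 rows for 10 names, neutrophils 11 for 10 and red blood cells 9 for 8. Higher and lower fitted means were 2 and 9 for heart muscle, 5 and 7 for endothelium and 1 and 6 for epicardium. They were 6 and 6 for fibroblast and matrix, 11 and 3 for macrophages, 5 and 6 for neutrophils and 2 and 7 for red blood cells. Skeletal muscle had 2 and 4, smooth muscle 1 and 6 and liver 2 and 3.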
